A study of Mus musculus with 9 samples.

Results

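Livers of mice that had received thioacetamide (TAA) and sulodexide were compared with control livers, to ask which genes still differed from normal liver at the end of treatment. The comparison holds the 3 libraries labelled TAA plus sulodexide and the 3 control libraries, 6 of the 9 RNA-seq libraries of the study. All mice were of the C57BL/6 strain. The TAA groups drank water with 400 mg/L TAA for 16 weeks in all. After the first 12 weeks, from week 13 on, sulodexide was given daily for 4 weeks while TAA was continued, so these livers were still exposed to TAA at the end. The remaining 3 libraries came from mice that received TAA for the same time with vehicle in place of sulodexide. The labels do not say whether controls received vehicle, and give neither sex nor age. They also leave unstated whether the 3 libraries of a group are different mice, and all p-values below therefore rest on the spread of these libraries alone. TAA and sulodexide cannot be told apart in this comparison, since no mice received sulodexide without TAA.

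TAA is converted by hepatocyte enzymes, among them Cyp2e1, into reactive products that bind proteins and lipids, and it is widely used to bring about liver fibrosis in rodents. Sulodexide is a mixture of a heparin fraction and dermatan sulfate. A damaged hepatocyte typically turns on p53 targets that halt division and NRF2 targets that detoxify reactive products, while it turns down its secreted proteins and its metabolic enzymes. Hepatocytes near the central vein and those near the portal vein carry out different tasks, and stellate cells, bile duct cells and macrophages take part in scarring.

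The tissue label was checked on hepatocyte markers. Alb, the albumin gene, stood at 69340.1, 85734 and 72167 CPM (counts relative to the scaled library size) in the control libraries and at 92044, 70152 and 79608 CPM in the sulodexide libraries. Ttr and Trf did not pass the test described below, while Apoa1 (9127, 11455 and 11342 CPM in control against 4192, 3466 and 4158 CPM with sulodexide) and Serpina1a (2356, 3212 and 3272 CPM against 1529, 2003 and 1936 CPM) were lower, so 2 of the 5 markers were called. Of 4 pancreatic acinar markers Prss2 and Pnlip had 0 counts in all 9 libraries, and Cpa1 was at 0 outside sulodexide replicate 1. The fourth, Cela1, stood at 19.6, 30.5 and 28.7 CPM in control and at 10.2, 9.98 and 17.4 CPM with sulodexide (edgeR adjusted p = 0.0107). Each library held between 13803697 and 16655951 counts in genes, and 13701 of the 34745 genes in the table had enough counts to be tested. Log2 levels of library pairs correlated across genes with r from 0.9373 to 0.9468 between control and sulodexide and from 0.9724 to 0.9804 within these groups, where genes are not independent replicates. Levels are CPM on libraries scaled with TMM, given per library in the order of the replicate numbers or as mean ± SD with n = 3. In bulk tissue, fewer cells of a type and less RNA per cell cannot be told apart.

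Many genes still differed from control after sulodexide, and with TMM scaling the median rise was larger than the median fall. Many targets of p53 and NRF2, glutathione transferases, fetal liver genes and macrophage genes were higher in the treated TAA livers. Many genes of amino acid breakdown, coagulation, bile acid synthesis, male-type urinary proteins and the mitochondrial genome were lower, and complement genes moved in both directions. In all, 3101 of the 13701 tested genes passed edgeR's quasi-likelihood test at a Benjamini-Hochberg adjusted p below 0.05, which is 22.6% of them. Of these, 1537 rose (11.2% of the tested genes) and 1564 fell (11.4%). The terms rose and fell are used below only for genes past this test. Counts of list members below are to be read beside the shares of all tested genes. The median rise was 2.12-fold and the median fall 1.69-fold. More than 4-fold rises numbered 341 and more than 4-fold falls 89, and more than 8-fold rises and falls 189 and 32. Against a threshold of 1.5-fold, 736 genes passed (5.37%), 424 higher (3.09%) and 312 lower (2.28%). On the other side, 3798 genes (27.7%) had a 95% interval within 1.5-fold of control, and 6822 genes (49.8%) met neither rule. The 3 libraries of each group did not overlap in 42% of all tested genes.

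Livers with TAA and vehicle differed from the same controls in 5953 genes (43.4%), and the sulodexide and vehicle groups differed in 658 genes (4.8%). The number of genes that differed between sulodexide and control was 2033 without control replicate 2 and 2064 without control replicate 3. The balance of rises and falls depends on how libraries are scaled. With TMM, 49.6% of the calls were rises and the median log2 fold change of all tested genes was 0.02. With total counts alone, 81.4% were rises (3315 higher and 757 lower) and that median was 0.27, so genes with small changes are best read relative to it.

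**Figure D1:**
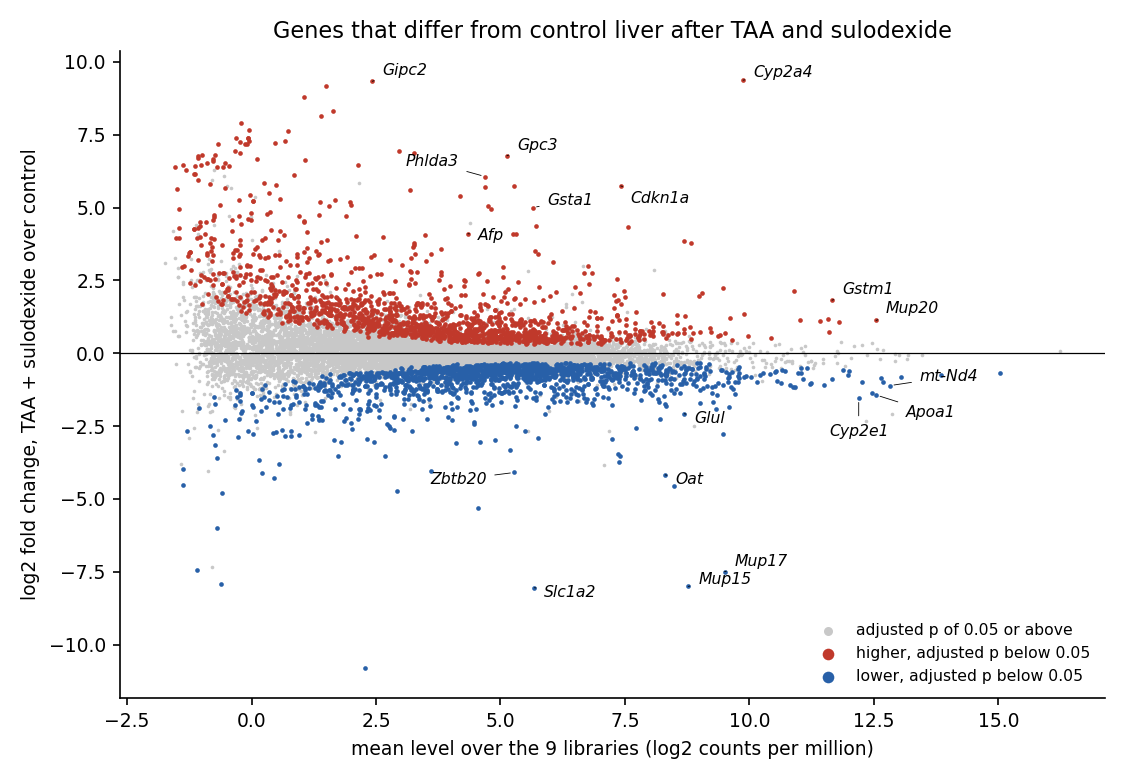
Each point is 1 of the 13701 tested genes, with its mean level over the 9 libraries (log2 CPM) on the horizontal axis and its fitted log2 fold change between TAA plus sulodexide and control on the vertical axis. Red and blue points rose and fell at an adjusted p below 0.05. Among the labelled genes Cyp2a4 and Gipc2 lie highest and Slc1a2 and Mup15 lowest.

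Several of the largest rises were in genes that were almost silent in control liver. Gpc3 (ENSMUSG00000055653, GRCm38 chromosome X, 52272426 to 52613950), a glypican of fetal liver that is known as a marker of liver cancer, stood at 0.145, 0.603 and 0.327 CPM in control and at 41, 38.1 and 37.9 CPM in the sulodexide libraries. The groups lie far apart, and the fitted change was 6.78 on the log2 scale (SE 0.25, edgeR adjusted p = 6.3e-08). Cyp2a4 (ENSMUSG00000074254, chromosome 7, 26307169 to 26315088), a steroid hydroxylase that is female-biased in mouse liver, stood at 0.291, 4.56 and 0.735 CPM in control and at 1316, 1051 and 1225 CPM with sulodexide (log2 change 9.37, SE 0.74, adjusted p = 0.000146). Every sulodexide library was above every control library. Cyp2a4 and Cyp2a5 are close copies, so reads they share may have been split between them. Gipc2 (chromosome 3, 152093533 to 152166230), which encodes a PDZ domain protein, had 0 counts in all 3 control libraries and 6.22, 4.93 and 4.47 CPM with sulodexide, at least 65.6-fold higher against a floor of 3 counts over the control group. The same bound was 57.9-fold for Cyp3a41a, 45.2-fold for Acsm4 and 32.3-fold for Tinag, which were also at 0 counts in control. Such bounds cover counting error only. The progesterone-degrading hydroxysteroid dehydrogenase gene Akr1c18 rose from 0.101 ± 0.11 to 13.9 ± 6.74 CPM (log2 change 6.93, SE 0.71, adjusted p = 0.000188).

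The largest falls included Slc1a2 and Oat, which are normally confined to hepatocytes at the central vein, and several major urinary proteins. Slc1a2 (ENSMUSG00000005089, chromosome 2, 102658659 to 102790784), a glutamate transporter, stood at 179, 129 and 151 CPM in control and at 0.711, 0.348 and 0.658 CPM with sulodexide. This was a fall by 8.05 on the log2 scale (SE 0.29, edgeR adjusted p = 6.3e-08), and with vehicle the gene stood at 0.806, 0.307 and 0.464 CPM. Oat (chromosome 7, 132557475 to 132576398), the ornithine aminotransferase, fell from 882 ± 70.9 to 48.8 ± 16.7 CPM, 18.1-fold (adjusted p = 8.01e-06). Nxpe2 fell 26.4-fold (adjusted p = 2.79e-05). Zbtb20 (chromosome 16, 42875881 to 43642602), a zinc finger repressor that is known in mice to keep Afp silent in adult liver, stood at 97.8, 110.3 and 110.3 CPM in control and at 6.57, 7.6 and 4.41 CPM with sulodexide. It fell 17.1-fold (adjusted p = 6.66e-07). Afp, the alpha-fetoprotein gene, stood at 1.24, 0.861 and 1.22 CPM in control and at 28.8, 10.6 and 18.3 CPM with sulodexide. It rose by 4.10 on the log2 scale (SE 0.37, adjusted p = 0.000101). A link between the changes of Zbtb20 and Afp was not tested.

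Targets of p53, the transcription factor that answers DNA damage, rose in 16 of 25 tested members, beside 11.2% of all tested genes. The list's median log2 change was 1.53, beside 0.02 for all genes, and the 9 members that did not pass ranged from -0.78 to 1.53. Phlda3 (ENSMUSG00000041801, chromosome 1, 135766119 to 135769136), which restrains Akt signalling, stood at 0.582, 0.517 and 0.653 CPM in control and at 36.8, 37.8 and 44.3 CPM with sulodexide. The rise was 66.9-fold (log2 change 6.06, SE 0.18, edgeR adjusted p = 1.63e-08). Cdkn1a (chromosome 17, 29090979 to 29100722), the p21 inhibitor of cyclin-dependent kinases, stood at 7.85, 2.32 and 3.67 CPM in control and at 308, 230.4 and 214 CPM with sulodexide, a rise of 53.5-fold (adjusted p = 1.74e-05). In both genes the groups do not overlap. The death receptor gene Tnfrsf10b and the TNF receptor family gene Eda2r rose by 5.59 and 5.39 on the log2 scale. The cyclin gene Ccng1 rose 5.18-fold, the apoptosis gene Bax 2.56-fold and Mdm2, which encodes the ligase that degrades p53, 1.96-fold.

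Of the 25 p53 targets, 1 passed the test between sulodexide and vehicle. With vehicle Phlda3 stood at 34.5, 38.5 and 39.1 CPM, within 0.08 on the log2 scale (SE 0.12) of the sulodexide group, and Cdkn1a at 235, 274 and 261 CPM. The difference between sulodexide and vehicle was -0.03 for Cdkn1a (SE 0.30), 0.37 for Eda2r (SE 0.23) and 0.16 for Ccng1 (SE 0.13), and none of these 4 differences passed the test. Sesn2, which encodes a stress-induced inhibitor of growth signalling, stood at 34.7, 32.9 and 27.4 CPM with sulodexide, against 8.65, 7.92 and 8.41 CPM in control (adjusted p = 1.07e-05) and 41.4, 48.5 and 48.2 CPM with vehicle. It was the target that differed from vehicle (log2 change -0.54, SE 0.13, adjusted p = 0.0372), and this call was lost without any of the 9 libraries (adjusted p from 0.0503 to 0.121). Trp53inp1, Sesn1 and Pmaip1, also on the list, did not pass against control, with log2 changes of 0.18, -0.38 and 0.13.

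Targets of NRF2, the factor that turns on genes against oxidants and electrophiles, rose in 18 of 27 tested members (median log2 change 0.76). The members that did not pass ranged from -0.07 to 0.64. Gclc (ENSMUSG00000032350, chromosome 9, 77754535 to 77794485), the catalytic subunit of the enzyme that starts glutathione synthesis, stood at 153, 154 and 145 CPM in control and at 643, 550.2 and 580.1 CPM with sulodexide (3.92-fold, edgeR adjusted p = 1.76e-05). Gclm, the gene of its regulatory subunit, stood at 141, 122 and 144 CPM in control and at 118, 179 and 92.6 CPM with sulodexide, where the groups overlap. Cbr3, a carbonyl reductase gene, rose from 0.605 ± 0.24 to 33.3 ± 2.83 CPM (adjusted p = 5.29e-06) and the efflux pump gene Abcc4 from 1.93 ± 0.235 to 33.4 ± 10.8 CPM (adjusted p = 1.18e-05). Nqo1, a quinone reductase gene often read as a sign of NRF2 activity, rose 4.63-fold (adjusted p = 0.00051), Srxn1 3.77-fold and Txnrd1, the thioredoxin reductase gene, 1.69-fold. The iron storage gene Fth1 rose from 1619.6 ± 86.9 to 3635 ± 283 CPM (edgeR adjusted p = 0.000337). The cystine transporter gene Slc7a11 had 0 counts in control and 3.97, 2.03 and 0.79 CPM with sulodexide, though it did not pass on FPKM values.

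NRF2 binds the antioxidant response element, whose core was searched as TGAC, any 3 bases and GCA on both strands in the RefSeq promoters of GRCm38.p6, from 250 bases before to 50 bases after each annotated start. Of the 28 genes of the NRF2 and glutathione transferase lists that rose, 25 had a promoter in the table and 2 of these held a match, Pgd and Txnrd1. A match stood in 2 of the 16 other tested members with a promoter and in 3.45% of all 27025 genes with a promoter, and no match says only that these letters are not in this window. The windows taken as promoters of the pentose phosphate gene Pgd (minus strand, chr4:149166033-149166332), which rose 3.51-fold, and of Txnrd1 (plus strand, chr10:82858956-82859255) are printed here. They run from 5′ to 3′ along the gene, with the match in capitals. The match in Pgd begins 3 bases after the annotated start, on the strand of the gene, so it does not lie upstream of that start. The bases just before this start are rich in t and end in cag, like the end of an intron. This start may therefore be that of an inner exon, and the Pgd match is not to be read as a promoter element. The match in Txnrd1 begins 93 bases before the annotated start and lies on the strand opposite to the gene.
Pgd: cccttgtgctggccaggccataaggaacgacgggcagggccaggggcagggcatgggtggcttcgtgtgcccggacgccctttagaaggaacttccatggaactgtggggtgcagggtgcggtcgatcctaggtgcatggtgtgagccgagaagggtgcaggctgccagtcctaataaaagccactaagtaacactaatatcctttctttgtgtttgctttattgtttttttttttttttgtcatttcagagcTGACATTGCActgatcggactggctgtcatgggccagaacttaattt
Txnrd1: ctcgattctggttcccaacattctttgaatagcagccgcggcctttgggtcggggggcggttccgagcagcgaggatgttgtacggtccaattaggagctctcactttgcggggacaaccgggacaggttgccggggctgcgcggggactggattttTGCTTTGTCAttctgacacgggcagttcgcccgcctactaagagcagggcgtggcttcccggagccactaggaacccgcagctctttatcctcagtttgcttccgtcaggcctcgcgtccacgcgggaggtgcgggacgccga

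Glutathione transferases, which couple reactive products to glutathione, rose in 10 of 21 tested members and fell in 2. Gstm1 (chromosome 3, 108012255 to 108017973) was among the genes that gained most in CPM and stood at 1049, 1136 and 1075 CPM in control and at 3679.5, 3916 and 3914 CPM with sulodexide (3.53-fold, edgeR adjusted p = 1.74e-05). Gstm3 rose from 39.4 ± 5.37 to 549 ± 8.86 CPM, Gsta2 from 33.1 ± 2.37 to 473 ± 42.3 CPM and Gsta1 from 1.82 ± 0.761 to 58.1 ± 10.6 CPM. The rises belonged to the alpha, mu and pi classes and Mgst3, whereas Gstk1 and Gstz1, of the mitochondrial kappa class and of the zeta class that breaks down tyrosine, fell by 0.73 and 0.56. With total counts as the scale 12 rose and 1 fell. The number of falls was 4 without sulodexide replicate 3 and 1 without control replicate 2, sulodexide replicate 1 or sulodexide replicate 2. Genes within these classes are alike in sequence, so counts of single members are uncertain.

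**Figure D2:**
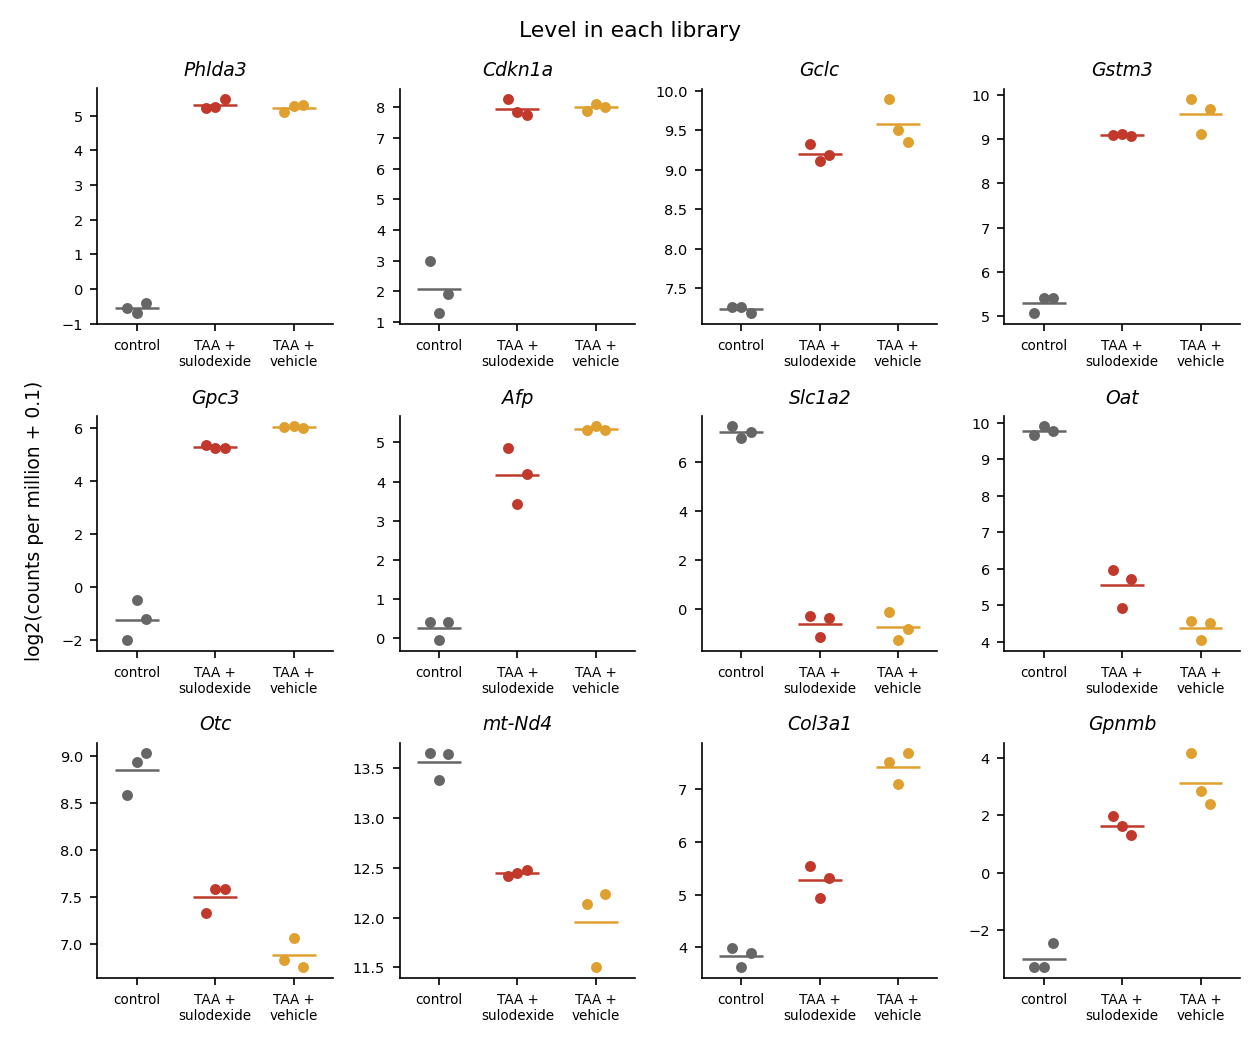
Each point is a library, plotted as log2(CPM + 0.1) for 12 genes in the control, TAA plus sulodexide and TAA plus vehicle groups, and each line is the mean of 3 libraries. In all 12 genes the sulodexide libraries lie apart from the control libraries. In Phlda3 and Cdkn1a they lie at the level of the vehicle libraries, and in Col3a1 they lie between the groups, from 30.7 to 46.5 CPM.

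Phase I enzymes, the cytochrome P450 and flavin monooxygenase genes, moved in both directions, with 8 of 49 tested members higher and 19 lower. Scaled by total counts, 10 rose and 14 fell. Cyp2e1 (chromosome 7, 140763739 to 140774975), the main enzyme that activates TAA, stood at 7631, 9764 and 9485 CPM in control and at 2841, 2370.2 and 3989 CPM with sulodexide, without overlap. It fell 2.92-fold (edgeR adjusted p = 0.000777). Cyp2c37 fell 7.69-fold and Cyp2c70, which makes muricholic acids, 3.63-fold. Por, the reductase gene that supplies electrons to P450 enzymes, fell by 1.12 on the log2 scale (adjusted p = 0.00222). Cyp2a5, the coumarin hydroxylase gene, rose from 522 ± 96.2 to 2320.5 ± 220.0 CPM and Cyp3a11, a drug-metabolizing P450 gene, from 1691 ± 106 to 3655 ± 769 CPM. Cyp1a2 and Cyp2b10, genes known to answer the receptors AHR and CAR, stood at log2 changes of 0.20 and 0.22 that did not pass. The gene of CAR itself, Nr1i3, fell 3.39-fold (adjusted p = 0.000368), but 74.9% of its exons overlap Tomm40l, so its counts are uncertain. Of 13 carboxylesterases 4 rose and 7 fell, with Ces2c 2.91-fold higher and Ces2a 2.94-fold lower. Of 22 UDP-glucuronosyl- and sulfotransferases 4 rose and 8 fell, and only 2 rose without control replicate 1.

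Genes of hepatocytes around the central vein moved in both directions. Of 23 pericentral genes 10 fell and 4 rose. Scaled by total counts 8 fell and 6 rose, and the list's median turned from -0.14 to 0.12. Beside Slc1a2 and Oat, Glul, the glutamine synthetase gene, fell 4.23-fold, from 864 ± 235 to 204 ± 42.1 CPM (edgeR adjusted p = 0.000111). Rhbg, an ammonium transporter gene, rose from 10.6 ± 3.27 to 21.8 ± 1.72 CPM (adjusted p = 0.00587). Wnt target genes of the same zone did not all behave alike. Axin2 was among the 4 genes of the list that rose. Lgr5, Tbx3, Nkd1 and Sp5 did not pass, with log2 changes of -0.14, 0.05, -0.20 and 0.07. Avpr1a (chromosome 10, 122448499 to 122453453), the vasopressin receptor of hepatocytes, stood at 17.3, 18.2 and 14.5 CPM in control, at 30, 30.9 and 38.6 CPM with sulodexide and at 9.78, 14.6 and 11.3 CPM with vehicle. The sulodexide libraries were above both other groups, by 0.99 against control (SE 0.17, adjusted p = 0.00241) and by 1.48 against vehicle (SE 0.17, adjusted p = 0.00532).

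Genes of the urea cycle and amino acid breakdown, which are mostly periportal, fell in 33 of 52 tested members, beside 11.4% of all tested genes, with a median log2 change of -0.65. Scaled by total counts 24 fell. Otc (ENSMUSG00000031173, chromosome X, 10252305 to 10321024), a urea cycle enzyme of the mitochondrion, stood at 386, 492 and 524 CPM in control and at 161, 192 and 192 CPM with sulodexide, and fell 2.57-fold (edgeR adjusted p = 0.00016). Cps1, the gene of the enzyme that starts the cycle, stood at 4971, 6095 and 6639 CPM in control and at 4209.9, 3506 and 2788 CPM with sulodexide (adjusted p = 0.0133, and 0.0511 on FPKM values). Ass1 and Arg1, later steps of the cycle, did not pass (-0.27 and -0.47). Afmid, a tryptophan pathway gene, fell 3.09-fold, Ahcy, the gene of the enzyme that removes S-adenosylhomocysteine, 2.16-fold, and Tat, the tyrosine aminotransferase gene, 1.83-fold. The 19 members that did not pass ranged from -1.02 to 0.14 on the log2 scale. Of 21 periportal genes 10 fell and 1 rose, and 9 fell and 3 rose with total counts as the scale.

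Coagulation factor genes fell in 11 of 18 tested members (median log2 change -0.52). Scaled by total counts 8 fell and 2 rose. Klkb1, the prekallikrein gene, fell 3.21-fold (edgeR adjusted p = 2.73e-05), though 11.4% of its exons overlap Cyp4v3, and F7 fell 1.9-fold, from 114 ± 14.6 to 59.9 ± 5.72 CPM (adjusted p = 0.00127). The fibrinogen genes Fga, Fgb and Fgg did not pass, with log2 changes of 0.29, 0.23 and 0.09. Among anticoagulants and fibrinolysis genes 6 of 19 fell and 4 rose, with 3 falls without control replicate 2, control replicate 3 or sulodexide replicate 1, and 2 rises without control replicate 2. Proc, the protein C gene, fell 1.84-fold and Serpind1, which encodes heparin cofactor II, the inhibitor that dermatan sulfate activates, 1.63-fold, from 758 ± 77.5 to 465 ± 53.9 CPM (adjusted p = 0.00361). Serpinc1, the gene of antithrombin, the target of heparin, stood at 1436, 1796 and 1905 CPM in control and at 1259, 1365 and 1357 CPM with sulodexide. The groups did not overlap, and the difference did not pass (adjusted p = 0.1).

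Complement genes fell in 13 of 26 tested members and rose in 5, and 8 fell and 7 rose with total counts as the scale. The falls were in components that hepatocytes secrete, with C8b 2.77-fold lower (edgeR adjusted p = 0.00221). The rises were of C1qa, C1qb, C1qc, C3ar1 and C5ar1, which macrophages and other myeloid cells express. C1qa stood at 31.6, 29.6 and 31.4 CPM in control and at 49.4, 91.8 and 79.5 CPM with sulodexide. Only 1 of these rises passed without control replicate 2, control replicate 3, sulodexide replicate 2 or sulodexide replicate 3, and 2 without control replicate 1. Apoa1, the gene of the main protein of high density lipoprotein, fell 2.7-fold, from 10642 ± 1313 to 3939 ± 409 CPM (adjusted p = 0.000208). Serpina3k, a very abundant protease inhibitor gene, stood at 18963, 23134 and 25817 CPM in control and at 13025, 14793 and 12755 CPM with sulodexide (adjusted p = 0.0259). Its call was lost without control replicate 2, control replicate 3, sulodexide replicate 1 or sulodexide replicate 3 (adjusted p from 0.0562 to 0.0807).

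Of 25 tested genes for making and moving bile acids, 11 fell and 1 rose. Their median log2 change was -0.49, and 7 fell and 2 rose with total counts as the scale. Slc10a1, the gene of the sodium-dependent bile acid importer, stood at 598, 666 and 696 CPM in control and at 278, 231 and 250.1 CPM with sulodexide, and fell 2.58-fold (edgeR adjusted p = 4.56e-05). Cyp7a1, the gene of the rate-limiting enzyme of bile acid synthesis, stood at 143, 211 and 177 CPM in control, at 56.5, 85.9 and 38.8 CPM with sulodexide and at 11.1, 21.7 and 11.8 CPM with vehicle (adjusted p = 0.00988 for sulodexide against control). The 3 groups do not overlap. Cyp27a1 fell 2.04-fold and Fgfr4, the receptor gene through which the gut hormone FGF15 lowers bile acid synthesis, 2.2-fold. The member that rose was Abcb4, the phospholipid exporter gene of the bile canaliculus (1.63-fold, adjusted p = 0.0039), while the bile salt exporter gene Abcb11 did not pass (-0.38).

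Transcripts of the mitochondrial genome took up 10.6%, 9.89% and 10.9% of all counts in the control libraries and 6.24%, 6.39% and 7.85% in the sulodexide libraries. The groups do not overlap, and the exact permutation test, two-sided, gave p = 0.1, the smallest value possible with 3 libraries a group. With vehicle the share was 6.52%, 4.79% and 5.97%. By edgeR, 12 of the 13 mitochondrial genes fell (median log2 change -1.09), and 10 fell with total counts as the scale. mt-Nd4, a subunit gene of complex I, stood at 12822, 10627 and 12753 CPM in control and at 5477, 5577 and 5692 CPM with sulodexide (2.16-fold lower, adjusted p = 0.00213). mt-Nd2 fell 2.56-fold (adjusted p = 0.00029). Nuclear genes of the respiratory chain had a median log2 change of 0.05, with 1 of 37 higher and 1 lower, and 27 of the 37 had a 95% interval within 1.5-fold of control. The rise, of Atp5o, was lost without control replicate 1, control replicate 3 or any of the 3 sulodexide libraries (adjusted p from 0.0566 to 0.102), 2 genes fell without sulodexide replicate 3, and 10 rose with total counts as the scale. The fall was of Ndufs7, a complex I gene (2.52-fold, adjusted p = 0.000212). Cytosolic ribosomal protein genes rose in 12 of 52 cases with TMM and in 26 with total counts. The share of mitochondrial transcripts in a library also moves with RNA quality and with how mRNA was separated, and this was not tested.

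**Figure D3:**
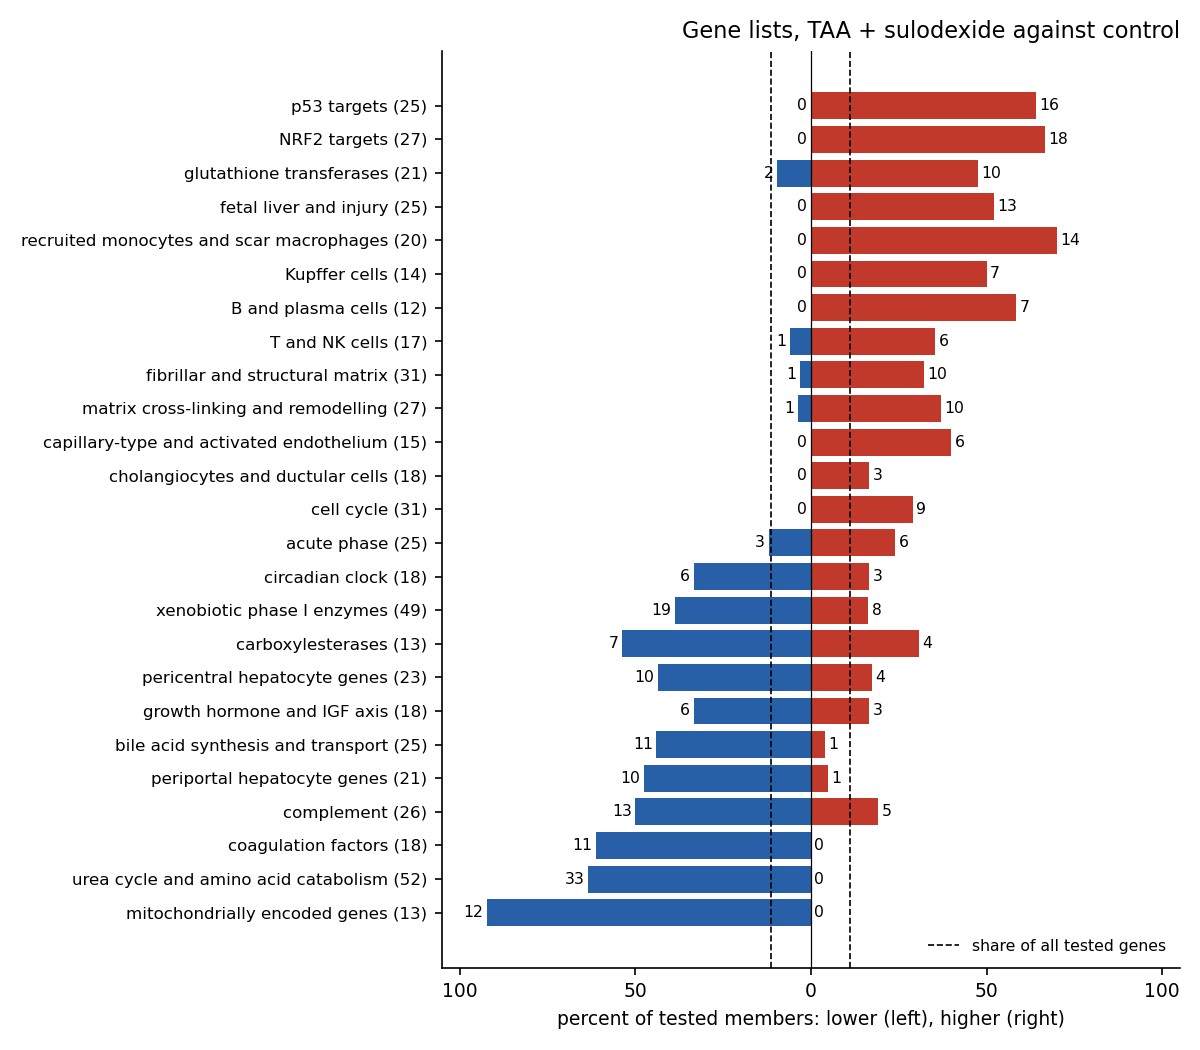
Bars give the percent of the tested members of 25 gene lists that were lower (left, blue) and higher (right, red) in TAA plus sulodexide than in control, with the number of members at the bar's end and the number tested in brackets. Dashed lines mark the share of all tested genes, 11.4% lower and 11.2% higher. The p53, NRF2 and macrophage lists lean to the right, and the mitochondrial, urea cycle and coagulation lists lean to the left.

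Several genes whose level in mouse liver differs between the sexes were lower or higher than in control. The growth hormone rhythm of adult males keeps male-biased genes high in mouse liver. The Y-linked gene Ddx3y had between 163 and 475 counts in each of the 9 libraries, and the female-expressed Xist had at most 5 counts. Major urinary proteins (Mups), pheromone carriers that are secreted by male liver, fell in 12 of 19 tested genes and rose in 1, with a median log2 change of -2.32. Mup15 (chromosome 4, 61435790 to 61439743) stood at 852, 819 and 2245 CPM in control and at 1.66, 8.35 and 5.2 CPM with sulodexide. It fell 257-fold (edgeR adjusted p = 0.000519), and with vehicle it stood at 0.914, 0.184 and 0.697 CPM. Mup17 fell 181-fold (adjusted p = 0.000626). Mup7, the most abundant in control, stood at 8751, 11352 and 18044 CPM there and at 465, 4282 and 2903 CPM with sulodexide, where the spread between libraries is wide and the difference did not pass (adjusted p = 0.118). Mup genes share most of their sequence, so single members are uncertain. All 21 Mup genes together took up 3.03% ± 0.949 of the counts in control and 1.82% ± 0.617 with sulodexide, with 2.36% as the lowest control value and 2.22% as the highest sulodexide value.

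Mup20, which encodes the pheromone darcin, went the other way. It stood at 3503, 3881 and 4951 CPM in control, at 6294, 8704 and 11926 CPM with sulodexide and at 2723, 6008 and 5743 CPM with vehicle (edgeR adjusted p = 0.0278 against control). The call was lost without control replicate 1, control replicate 2, sulodexide replicate 2 or sulodexide replicate 3, with adjusted p from 0.0599 to 0.0962. Of 25 male-biased genes 10 fell, and Mup20 rose. Serpina12, the vaspin gene, fell from 96.4 ± 7.66 to 17.2 ± 9.8 CPM (adjusted p = 0.00258). Of 13 female-biased genes 4 rose, the P450 genes Cyp2a4, Cyp3a41a, Cyp3a44 and Cyp2b9, and Cyp2c69 fell. Cyp2b9 stood at 0.582, 1.72 and 0.163 CPM in control and at 17.8, 6.73 and 13.8 CPM with sulodexide (adjusted p = 0.00222). Of 18 genes of the growth hormone and IGF axis 6 fell and 3 rose, and 0 rose without control replicate 2, control replicate 3 or sulodexide replicate 2. Ghr (chromosome 15, 3317760 to 3583492), the receptor gene, fell from 415 ± 19.5 to 187 ± 24.5 CPM (2.22-fold, adjusted p = 0.000196). Igfals, which encodes the subunit that stabilizes circulating IGF1, fell 3.3-fold (adjusted p = 9.81e-06) and Igf1 1.95-fold (adjusted p = 0.000248), while Stat5b, the transducer of growth hormone signals, did not pass (0.01).

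**Figure D4:**
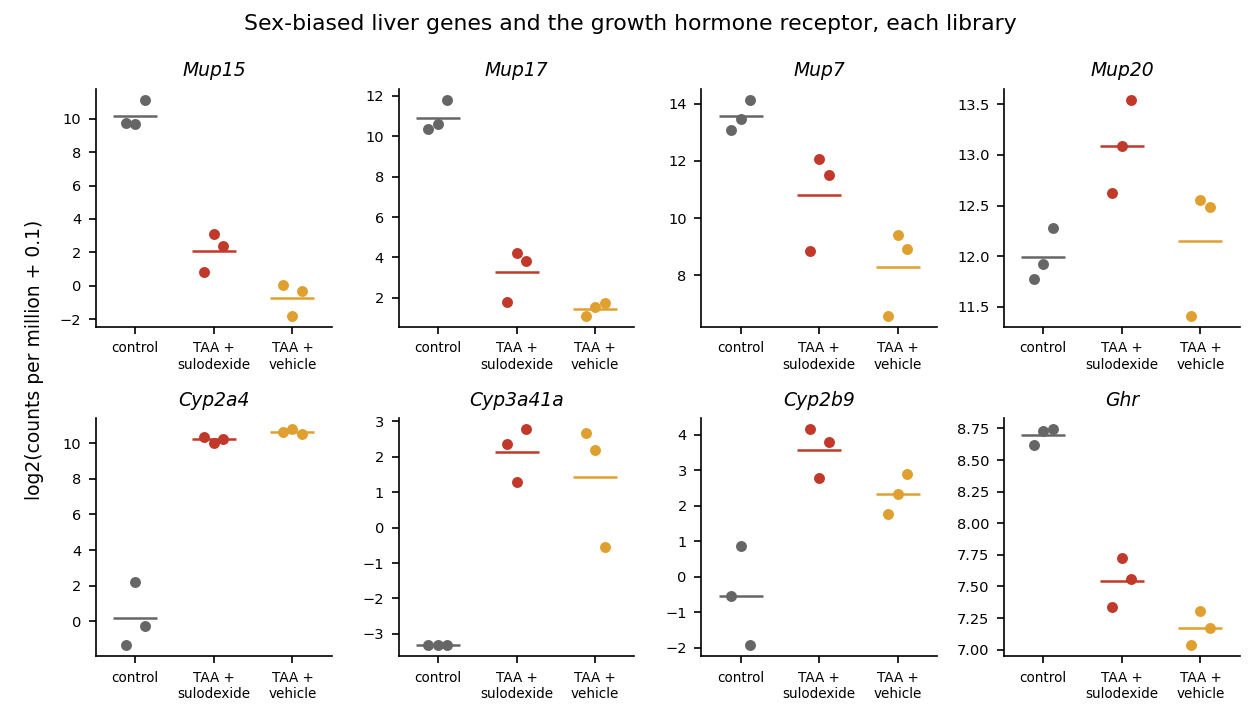
Each point is a library, plotted as log2(CPM + 0.1), in the control, TAA plus sulodexide and TAA plus vehicle groups, and each line is the mean of 3 libraries. The male-biased Mup15, Mup17 and Mup7 and the growth hormone receptor gene Ghr are highest in control, the female-biased Cyp2a4, Cyp3a41a and Cyp2b9 are lowest in control, and Mup20 is highest with sulodexide, at 6294 to 11926 CPM.

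Fetal liver and injury genes rose in 13 of 25 tested members (median log2 change 1.54), among them Gpc3 and Afp, and 19 rose with total counts as the scale. Anxa5, which encodes an annexin that binds exposed phosphatidylserine, rose 2.5-fold and Lgals1, the galectin-1 gene, 3.86-fold, from 19 ± 4.98 to 73.5 ± 17.3 CPM (edgeR adjusted p = 0.000238). Ly6d stood at 0.291, 0.517 and 0.49 CPM in control and at 31.5, 15.4 and 21.5 CPM with sulodexide (adjusted p = 0.000887). Igf2 and H19, an imprinted pair that is high in fetal liver, did not pass (-0.63 and 1.66). Among cell cycle genes 9 of 31 rose, and 5 rose without control replicate 3 or sulodexide replicate 3 and 14 with total counts as the scale. Ccnd1, the cyclin gene of entry into the cycle, rose from 31 ± 3.3 to 129 ± 46.4 CPM (adjusted p = 0.000481), with 23.4% of its exons overlapping Oraov1, while Pcna did not pass (0.01).

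Macrophage genes were higher than in control. Of 20 genes of recruited monocytes and scar macrophages 14 rose (median log2 change 1.48). The count was 6 without control replicate 2, 8 without control replicate 3 and 9 without control replicate 1 or sulodexide replicate 3. Cd63, a tetraspanin gene of late endosomes that other cells also express, stood at 2.85 ± 1.06 CPM in control and at 59.1 ± 10.9 CPM with sulodexide (20.8-fold, edgeR adjusted p = 2.4e-06). Trem2, a lipid receptor gene of scar macrophages, stood at 0.363, 0 and 0.245 CPM in control and at 1.66, 2.09 and 1.97 CPM with sulodexide (adjusted p = 0.00359). Gpnmb, of the same cells, had 1 count in all control libraries and 152 with sulodexide, a ratio of 116 with a counting interval from 20.5 to 4607 (adjusted p = 0.00114, and 0.141 on FPKM values). Ccr2, the chemokine receptor gene of newly arrived monocytes, did not pass (0.20). The summed level of 5 defining markers of these macrophages lay between 2.58 and 3.34 CPM in control and between 11.1 and 11.6 CPM with sulodexide.

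Kupffer cell genes, of the resident liver macrophages, rose in 7 of 14 tested members. The count was 1 without control replicate 3 and 2 without control replicate 1, control replicate 2, sulodexide replicate 2 or sulodexide replicate 3. Clec4f, a lectin gene specific to these cells, stood at 72.6, 62.7 and 60.5 CPM in control and at 85.5, 168 and 122 CPM with sulodexide, without overlap (edgeR adjusted p = 0.0103, and 0.0504 without control replicate 3). With vehicle it stood at 88.8, 78.6 and 67.6 CPM. The 5 defining Kupffer markers summed to 142 to 164 CPM in control and to 202 to 447 CPM with sulodexide. Their part in the changes of the Kupffer cell genes was not tested. Plasma cell transcripts were higher as well. Jchain, which joins antibody units, stood at 0.8, 1.46 and 1.55 CPM in control and at 7.82, 10.3 and 15.7 CPM with sulodexide (adjusted p = 0.0033). Of 12 B and plasma cell genes 7 rose, with 3 without control replicate 2, sulodexide replicate 2 or sulodexide replicate 3 and 4 without control replicate 1. All 231 antibody genes took up 0.00242% ± 0.000772 of the counts in control and 0.0275% ± 0.0136 with sulodexide.

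T and NK cell genes rose in 6 of 17 tested members and 1 fell, Cd4, the co-receptor gene of helper T cells, by 1.43 on the log2 scale. Total counts as the scale gave 10 rises. The number of rises was 0 without control replicate 1, control replicate 3 or sulodexide replicate 2, 2 without sulodexide replicate 3, 3 without control replicate 2 and 11 without vehicle replicate 1. The fall of Cd4 was lost without any of the 3 control libraries, sulodexide replicate 1 or sulodexide replicate 3. Of 9 genes of MHC class II presentation, edgeR called 0, with 5 at an unadjusted p below 0.05 and 3 by DESeq2. Their median log2 change was 1.42, and 7 and 5 rose without vehicle replicate 1 and vehicle replicate 2. Of 24 interferon-stimulated genes 4 fell, the list's median log2 change was -0.54, and 2 fell with total counts as the scale. Ifit1, an antiviral gene, stood at 8.36, 6.8 and 17.6 CPM in control and at 2.37, 4.29 and 2.9 CPM with sulodexide (adjusted p = 0.00621).

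Part of the fibrous matrix genes were above control. Of 31 tested members 10 rose and 1 fell, with 0.66 as the median log2 change. The number of rises was 3 without control replicate 2, 5 without control replicate 1 or sulodexide replicate 1 and 6 without control replicate 3, and 20 with total counts as the scale. Col3a1 (ENSMUSG00000026043, chromosome 1, 45311538 to 45349706), a fibrillar collagen gene, stood at 15.8, 12.2 and 14.7 CPM in control, at 46.5, 30.7 and 39.9 CPM with sulodexide and at 182, 136 and 205 CPM with vehicle. The 3 groups do not overlap. Sulodexide libraries lay 1.45 above control (SE 0.19, edgeR adjusted p = 0.00055) and 2.16 below vehicle (adjusted p = 0.00251) on the log2 scale. Col1a1, the main collagen gene of scars, stood at 4.07, 2.32 and 3.67 CPM in control and at 18.8, 8.7 and 9.87 CPM with sulodexide (adjusted p = 0.0161, and 0.0582 without control replicate 2). Serpinh1, the collagen chaperone gene, rose 2.52-fold (adjusted p = 0.00434). Fn1, Bgn, Dcn and Tnc did not pass (-0.17, 0.30, 0.37 and 0.47). Of 27 cross-linking and remodelling genes 10 rose and 1 fell, and 5 rose without control replicate 2 or control replicate 3.

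Among 19 stellate cell and myofibroblast genes 3 rose and 1 fell. The number of rises was 1 without control replicate 1, control replicate 3 or sulodexide replicate 2, 5 without vehicle replicate 2 and 11 with total counts as the scale. The 5 defining stellate markers summed to 35 to 40.5 CPM in control and to 51.4 to 61.5 CPM with sulodexide, and 1 of them, Col1a1, passed the test. Acta2, the smooth muscle actin gene of myofibroblasts, stood at 3.2, 3.87 and 2.78 CPM in control and at 5.63, 5.05 and 6.51 CPM with sulodexide. These groups did not overlap, but the difference did not pass the test. With vehicle Acta2 stood at 6.83, 13.3 and 12.5 CPM. Of 26 TGF-beta pathway genes 6 rose, with 2 without control replicate 1 and 3 without control replicate 2, and 10 with total counts as the scale. Of 15 capillary-type and activated endothelial genes 6 rose, with 3 without control replicate 1 or control replicate 2. Among the 4 defining capillary markers Cd34 and Plvap rose, while Vwf and Pecam1 did not pass. Cd34 stood at 1.16, 1.38 and 1.39 CPM in control, at 4.32, 3.48 and 3.82 CPM with sulodexide and at 20.8, 10.4 and 18.3 CPM with vehicle (edgeR adjusted p = 0.00405 against control, and 0.117 on FPKM values). The adhesion genes Icam1 and Vcam1 rose 2.82-fold and 3.26-fold, and bulk tissue does not show in which cells. Of 21 sinusoidal endothelial genes 1 rose, the list's median was 0.01 and 6 had a 95% interval within 1.5-fold of control. The rise was not called without sulodexide replicate 2 or sulodexide replicate 3, and there were 2 rises without sulodexide replicate 1 and 6 with total counts as the scale.

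Of 18 genes of cholangiocytes and ductular cells 3 rose, Krt23, St14 and Cldn4, beside 11.2% of all tested genes, and 15 did not pass. Krt19, a keratin gene of duct cells, stood at 1.96, 1.03 and 0.98 CPM in control, at 3.73, 1.1 and 2.83 CPM with sulodexide and at 14.3, 6.45 and 20.8 CPM with vehicle. The control and sulodexide groups overlap, and the vehicle libraries lie above both. The 5 defining duct markers summed to 6.03 to 8.36 CPM in control and to 6.15 to 16.5 CPM with sulodexide. The list's median log2 change was 0.87 and no member had a 95% interval within 1.5-fold of control, so these data do not show that duct genes were back at the control level. Cldn4 passed narrowly (adjusted p = 0.0486) and was lost without any of the 3 control libraries, vehicle replicate 3, sulodexide replicate 1 or sulodexide replicate 3 (adjusted p from 0.0631 to 0.139). Krt23 stood at 0.872, 0.689 and 0.735 CPM in control and at 7.46, 2.38 and 6.32 CPM with sulodexide (edgeR adjusted p = 0.00128).

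Genes of heparan sulfate, chondroitin and hyaluronan metabolism, core proteins such as Gpc3, Sdc1 and Sdc2 included, were tested as a list of 39. Heparin belongs to the heparan sulfate family. Of the list 3 rose and 6 fell, beside 11.2% and 11.4% of all tested genes. With total counts as the scale 10 rose and 2 fell, and 6 rose without vehicle replicate 1. Sulf2, which removes sulfate from heparan sulfate outside the cell, rose from 15.8 ± 2.94 to 35.7 ± 4.56 CPM (edgeR adjusted p = 0.000707). Sdc2, a syndecan gene of hepatocytes, fell from 224 ± 17.5 to 121 ± 5.08 CPM (adjusted p = 0.000323). Extl1, a glycosyltransferase gene, stood at 15.1, 18.3 and 16.6 CPM in control, at 6.45, 6.56 and 7.04 CPM with sulodexide and at 2.58, 1.72 and 1.34 CPM with vehicle (adjusted p = 0.00137 against control and 0.00532 against vehicle). The heparanase gene Hpse did not pass (0.70).

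In lipid metabolism, 6 of 24 lipogenesis genes rose and 4 fell, and 9 rose with total counts as the scale. Scd2 (chromosome 19, 44293676 to 44306864), a fatty acid desaturase gene that is low in adult liver, stood at 7.92, 9.64 and 8.25 CPM in control, at 223, 146 and 151 CPM with sulodexide and at 448, 374 and 322 CPM with vehicle. It rose 20.2-fold (edgeR adjusted p = 7.21e-07) and was 1.14 lower than with vehicle on the log2 scale (adjusted p = 0.00991). Cd36, a fatty acid importer gene, rose 6.79-fold and Plin2, which coats lipid droplets, 4.2-fold. Srebf1, the gene of the factor that drives lipogenesis, fell 3.39-fold, from 246 ± 62.8 to 72.5 ± 12.9 CPM (adjusted p = 0.000406), while Fasn and Scd1 did not pass (0.05 and -0.07). Insig1, a sterol sensor gene, fell 2.19-fold (adjusted p = 0.000559). G6pc, the glucose-6-phosphatase gene of gluconeogenesis, stood at 954, 977 and 1342 CPM in control and at 305, 317 and 252 CPM with sulodexide (3.75-fold lower, adjusted p = 0.000238). Of 25 cholesterol synthesis genes 4 rose and 5 fell, and 8 rose and 1 fell with total counts. The number of rises was 1 without control replicate 2, control replicate 3 or sulodexide replicate 3 and 2 without vehicle replicate 1, sulodexide replicate 1 or sulodexide replicate 2. The number of falls was 1 without control replicate 2, 2 without control replicate 1 and 3 without control replicate 3 or sulodexide replicate 2.

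Clock genes also differed from control. Arntl, which encodes the clock activator BMAL1, stood at 5.23, 4.56 and 4.98 CPM in control and at 32.2, 29.1 and 23.8 CPM with sulodexide (5.74-fold, edgeR adjusted p = 2.97e-06). Npas2, of a partner of BMAL1, rose from 0.165 ± 0.0928 to 6.06 ± 0.384 CPM, and Per2, of a repressor, fell 2.03-fold. Nr1d1, which encodes the repressor REV-ERB alpha, stood at 26.2, 25.3 and 25.8 CPM in control, at 89.5, 96 and 90.5 CPM with sulodexide and at 61.5, 55.1 and 50.7 CPM with vehicle. It was higher with sulodexide than in both other groups (adjusted p = 4.07e-06 and 0.0087), and 8.5% of its exons overlap Thra on the other strand. Of 18 clock genes 3 rose and 6 fell, and 4 rose and 4 fell with total counts as the scale. The labels give no time of day of sampling, so clock phase and group cannot be told apart.

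Acute phase genes, which inflammatory signals turn on in hepatocytes, rose in 6 of 25 tested members and fell in 3. With total counts as the scale 9 rose and 2 fell, 2 rose without control replicate 2 and 5 fell without sulodexide replicate 2. Saa1, a serum amyloid A gene, stood at 42.9, 70 and 158 CPM in control, at 271, 489.7 and 430.3 CPM with sulodexide and at 63.1, 38.2 and 56.4 CPM with vehicle. The sulodexide libraries lie above both other groups (edgeR adjusted p = 0.0151 against control and 0.0182 against vehicle). The call against control was lost without control replicate 2 (0.0569) or sulodexide replicate 3 (0.0502), and that against vehicle without vehicle replicate 1, vehicle replicate 3, sulodexide replicate 2 or sulodexide replicate 3 (0.0633 to 0.0786). Saa2 stood at 14.6, 22.2 and 61.1 CPM in control and at 229, 351 and 207 CPM with sulodexide (adjusted p = 0.0104). Saa1 and Saa2 are near copies, so their counts are uncertain. Lcn2, a lipocalin gene that binds iron carriers of bacteria, rose 8.8-fold (adjusted p = 0.0142, and 0.0568 without control replicate 2). Crp, the C-reactive protein gene, which responds weakly in mice, fell 2.03-fold, and Hp, the haptoglobin gene, did not pass (0.39).

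The naming rule given below took genes that differed from control and, in the same direction, from vehicle, 7 higher and 8 lower. Meg3, Avpr1a and Nr1d1 are among them. Meg3, a long noncoding RNA gene, stood at 11.1, 11.3 and 13.8 CPM in control, at 2.13, 1.39 and 2.83 CPM with sulodexide and at 6.56, 7.25 and 5.05 CPM with vehicle. It fell 5.71-fold against control (edgeR adjusted p = 0.00013) and by 1.57 on the log2 scale against vehicle (adjusted p = 0.0108). The calls of Meg3, and of Avpr1a and Nr1d1 given above, against both groups held in every alternative that was run. This does not hold for all genes the rule took. Acsl3, lower than in both groups, was not called against control in 3 alternatives and against vehicle in 7.

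The naming rule also took 8 genes that differed between vehicle and control, and the opposite way between sulodexide and vehicle. With sulodexide they lay within 1.5-fold of control. For Xbp1, Tdo2, Otud1 and Irf2bp2, given here, the call against vehicle held in every alternative. It was lost in 1 alternative each for Foxa2 and Col4a2, in 3 for Txnip and in 4 for Mpzl2. Xbp1 (chromosome 11, 5520659 to 5525893), the gene of a factor of the unfolded protein response, stood at 326, 319.8 and 316 CPM in control, at 369.8, 370.0 and 368 CPM with sulodexide and at 195, 215 and 213 CPM with vehicle. The difference from control was 0.20 on the log2 scale (SE 0.10), with a 95% interval within 1.5-fold, and the difference from vehicle was 0.83 (SE 0.10, edgeR adjusted p = 0.00532). Tdo2, which starts tryptophan breakdown, stood at 1279.9, 1283 and 1342 CPM in control, at 1294, 1173 and 1274 CPM with sulodexide and at 798, 779 and 785 CPM with vehicle (adjusted p = 0.0109 against vehicle). Otud1 and Irf2bp2, of a deubiquitinase and of a transcriptional repressor, were higher with vehicle than with sulodexide (adjusted p = 0.0102 and 0.0117) and lay 0.16 and 0.10 from control on the log2 scale.

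**Figure D5:**
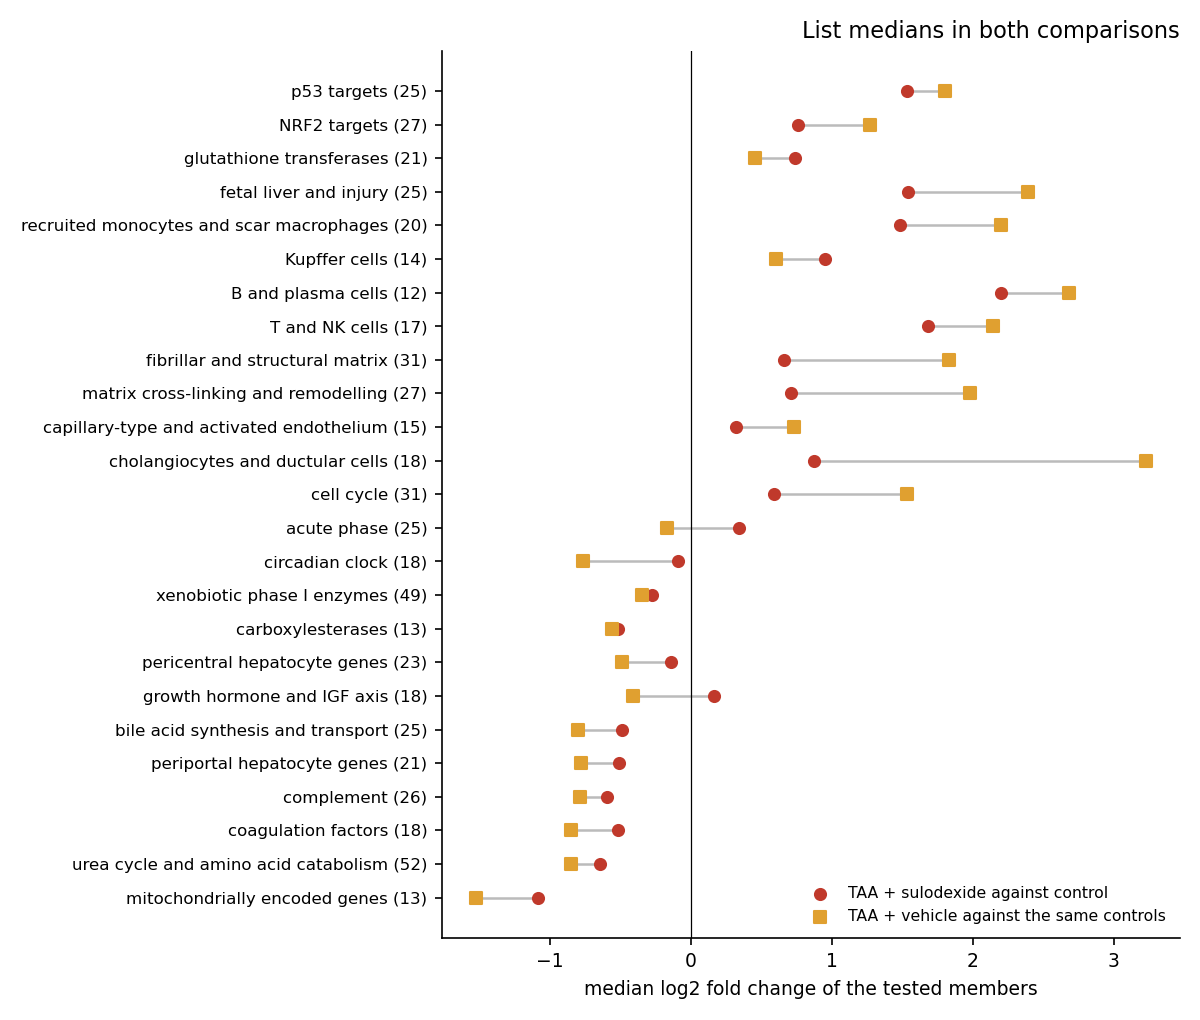
Each row is a gene list, with the number of tested members in brackets, and each mark is the median log2 fold change of its tested members in TAA plus sulodexide (circles) or TAA plus vehicle (squares) against the same 3 control libraries. The p53 medians are 1.53 and 1.80, and the bile duct medians are 0.87 and 3.23. Since both comparisons share their controls, the marks are shown side by side and no agreement between them was tested.

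The counts that follow stand beside 11.2% of all tested genes that rose and 11.4% that fell. Of 25 genes of the unfolded protein and integrated stress response 5 rose and 4 fell. The rises came to 3 without sulodexide replicate 1, and the falls to 2 without control replicate 3 or sulodexide replicate 1. With total counts as the scale 7 rose and 1 fell. Of 26 autophagy and lysosome genes 5 rose and 3 fell, and 12 rose with total counts as the scale, with 1 fall without control replicate 2, control replicate 3, sulodexide replicate 1 or sulodexide replicate 2. Of 34 fatty acid oxidation genes 4 rose and 5 fell, and 6 rose and 2 fell with total counts as the scale. The rises there came to 2 without control replicate 1, control replicate 2 or sulodexide replicate 1 and to 1 without control replicate 3, and the falls to 2 without control replicate 2 or sulodexide replicate 2 and to 3 without control replicate 1. Of 24 hepatocyte transcription factors and nuclear receptors 4 fell and 1 rose, and Hnf4a, a master regulator of hepatocyte identity, did not pass (0.10). Of 18 YAP and TEAD target genes 5 rose. Of 19 apolipoprotein genes 4 fell and 2 rose, and 3 fell and 4 rose with total counts as the scale. Of 7 neutrophil genes 2 rose, 0 without any of the 3 control libraries, sulodexide replicate 1 or sulodexide replicate 2, and 4 without vehicle replicate 1 or vehicle replicate 2. The defining neutrophil markers summed to 2.11 to 3.01 CPM in control and to 6.78 to 15.3 CPM with sulodexide.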

How the data were processed

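mRNA separated from total RNA was sequenced in 9 liver libraries, 3 a group, per the labels' protocols. The authors deposited a table of whole-number counts and FPKM per gene, with HISAT2 2.0.4, StringTie 1.3.0 and the builds mm10 and GRCm38.p4 per the submitters' processing notes. The counting program is not given in the sources used here, nor is its strand setting, so reads of overlapping genes cannot be told apart and close copies may share reads. Overlap was noted from 5% of a gene's exons on.

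Counts of all 9 libraries were fitted with edgeR 4.0.16 in R 4.3.3 (TMM scaling, filterByExpr with a minimum count of 10, quasi-likelihood test, Benjamini-Hochberg adjustment over all 13701 tested genes). Fold changes above 1.5 were tested with glmTreat, and 95% intervals came from limma-trend 3.58.1 with a prior count of 2. DESeq2 1.42.0 and limma on log2(deposited FPKM + 1) were alternatives. The steps were also run on simulated counts with few changed genes, up or down at random. Far more genes were called here, so that run cannot speak to how scaling splits rises and falls. Floors of 3 counts over a group cover counting error only.

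The 52 gene lists and the genes compared were chosen with earlier results of these data known, and lists are described by counts and medians. Genes were eligible to be named, and the text prints a part of them, by a rule that takes the 10 largest rises and falls, the 8 largest in CPM, up to 4 called members of each list in its main direction and 2 in the other, up to 8 genes beyond both groups each way, up to 8 within 1.5-fold, and genes at 0 counts in control. Members outside this rule, among them Mdm2, Bax, Nqo1, Srxn1, Txnrd1, Slc7a11, Cps1, Tat, Cyp7a1, Npas2, Mup7 and members given as not passing, were chosen after their values were seen. Promoters came from RefSeq GRCm38.p6.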

Additional observations from a re-analysis of the deposited data

How the results depend on the processing

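The count of 3101 genes that differed between sulodexide and control lay between 2033 and 3191 when a library was left out. The rises (1537) numbered 3315 with total counts as the scale, 2648 on FPKM values and 928 to 1621 with a library left out, and the falls (1564) numbered 757 with total counts and 750 on FPKM values. The cause was not tested. The 658 genes between sulodexide and vehicle came to 1142 with DESeq2, 386 in a fit of only the 6 libraries compared and 140 to 859 with a library left out. Within 2-fold in place of 1.5-fold of control lay 8308 genes in place of 3798. With the replicate number as a block, 2984 genes differed from control, and 7 in place of 3 bile duct genes rose. Deviations of same-numbered sulodexide and control libraries correlated at 0.132, -0.07 and -0.000298, so the numbers were not taken to pair the samples. Of the 259 genes that the naming rule takes, of which the text prints a part, none reversed in any alternative. The label stayed the same for 259 with DESeq2, 235 with total counts, 224 on FPKM values and 218 to 258 without a library. The 259 include 8 genes taken for lying within 1.5-fold of control, so a same label is not always a kept call. Genes under about 1 CPM rest on few counts, so a missed call there does not show that levels were alike.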
